A study of Mus musculus with 11 samples.

Results

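Oxidative phosphorylation is the set of mitochondrial enzymes that turn the energy of reduced coenzymes into ATP. Complexes I and II pass electrons to ubiquinone, complex III passes them on to cytochrome c, complex IV hands them to oxygen, and complex V, the ATP synthase, uses the proton gradient built on the way to make ATP. Most subunits are encoded in the nucleus, translated on cytosolic ribosomes and imported into mitochondria. Neurons depend on the pathway for most of their ATP, and it stops when loss of blood flow cuts off oxygen, the final electron acceptor. The genes described here were all protein-coding genes whose mouse symbol begins with Nduf, Uqcr, Atp5 or Cox4 to Cox8, with the 4 Sdh genes, Cyc1 and Cycs. The annotation holds 95 such genes, and 73 of them had a row in the deposited table of 4338 genes. All 73 passed the filter on low counts and were tested. By complex they comprise 33 genes of complex I, 4 of complex II, 9 of complex III, cytochrome c, 12 of complex IV and 14 of complex V. Ndufa4, whose protein was first assigned to complex I, and Cox7a2l, described as a factor that joins complexes III and IV, are placed with complex IV. Whether Cox7a2l does so in the C57BL6 mice used here was not measured. The other 22 symbols were not analysed here, among them the assembly factors Ndufaf1 to Ndufaf8 and the tissue isoforms Cox4i2, Cox6a2, Cox6b2, Cox7a1, Cox8b and Cox8c. Ndufa1, Ndufa6, Ndufs6, Atp5l and Atp5mpl are also among the 22, so the sums by complex do not hold them.

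The measurements are counts of ribosome-protected fragments, the pieces of messenger RNA that a ribosome shields from nuclease, in cortex of wildtype C57BL6 mice of 7 to 8 weeks. In the ipsilateral group (4 libraries, replicates 2, 4, 5 and 6), the cortex came from the side of a stroke made with a filament that closed the right middle cerebral artery over 35 min, with the common carotid artery tied, and was taken after 3 h of reperfusion. The contralateral group (4 libraries, replicates 1, 4, 5 and 6) is the opposite cortex after the same occlusion and reperfusion time. In the sham group (3 libraries, replicates 1, 2 and 5), mice were anaesthetized and had their arteries exposed, but received no filament, with no word on which side was dissected. The tissue entry of the ipsilateral samples reads contralateral whereas their titles read ipsilateral, and the titles were followed. A replicate number stands for a day of surgery, so libraries with the same number share that day. Cortex was digested with micrococcal nuclease, and monosomes were captured with an antibody to the ribosomal protein P0. No total RNA was analysed here, so transcript amount and translation cannot be told apart, and in bulk tissue fewer cells of a type and less RNA per cell cannot be told apart either.

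Library totals here are sums over the transcript kept for each gene in the table, not all reads of a library. They were 35068 to 137341 counts in ipsilateral, 137372 to 571351 in contralateral and 64460 to 256657 in sham cortex. The smallest is ipsilateral replicate 4, in which a member had a median count of 6, and Atp5g2 and Ndufb5 had a count of 0. Over all libraries a member had 130 to 4524 counts with a median of 375. Neuron markers (11 of 11 in the table) summed to 14579 to 17864 CPM in ipsilateral, 15991 to 18607 in contralateral and 15841 to 18166 in sham cortex, so neuronal markers were present in every library labelled as cortex. CPM is a count per 1000000 of the library total after scaling between libraries with TMM factors. The 7 oligodendrocyte markers in the table summed to 2554 to 5669 CPM in ipsilateral, 1949 to 2695 in contralateral and 1928 to 2498 in sham cortex. Against contralateral cortex 4 of the 7 passed the edgeR test as higher, where 0.365% of all genes tested passed in either direction. The 7 microglial markers summed to 1277 to 1775, 1022 to 1184 and 823 to 974 CPM in these groups, and the 3 markers of striatal neurons to 157 to 619, 216 to 590 and 495 to 868 CPM. The 4 red cell markers summed to 1013 to 1971, 551 to 967 and 868 to 1289 CPM, and 2 of the 4 passed the same test as higher in ipsilateral than in contralateral cortex. The 9 astrocyte markers summed to 11331 to 13105, 11733 to 16038 and 10434 to 13903 CPM, while 0 of 6 endothelial markers had a row. The part of these cell mixtures in the values below was not tested.

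Together the 73 genes took 1.69% to 1.97% of the library totals in ipsilateral, 1.72% to 1.97% in contralateral and 1.97% to 2.01% in sham libraries. Their summed level was 18689 ± 1317 CPM in ipsilateral, 18683 ± 916 CPM in contralateral and 19718 ± 91.5 CPM in sham cortex (SD, n = 4, 4 and 3). The group ranges overlapped. Complex V supplied 35.0% of the summed level, complex I 26.8%, complex IV 22.0%, complex III 10.5%, complex II 5.15% and cytochrome c 0.552%.

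Levels of different genes were set side by side per length, as CPM per kb of coding sequence. In sham cortex the median gene stood at 1308 CPM per kb in complex IV, 678 in complex V, 478 in complex III, 280 in complex II and 261 in complex I, with cytochrome c at 316. Ndufa4 (2714 ± 740 CPM per kb, SD, n = 3) and Cox8a (2413 ± 303) stood highest, and their levels differed by less than the SD of Ndufa4. Ndufv3, an accessory subunit of complex I that has a long isoform, stood lowest at 106 ± 27.3 CPM per kb. This level is per its longest coding sequence, 1404 nt, so the place depends on the isoform. In complex I the 7 core subunits, which carry the flavin and the iron-sulfur clusters, had a median of 200 CPM per kb and the 26 accessory subunits 302. Ndufc2 (946 ± 107) and Ndufb2 (694 ± 122), both of the membrane arm, led that complex. Uqcr11 (1160 ± 413), a small subunit, had the highest mean in complex III. That lead rests on sham replicate 2, since Uqcrq (1011 ± 126) was higher in replicates 1 (870 against 865) and 5 (1048 against 982). Cyc1 (140 ± 55.0), the cytochrome c1 that hands electrons to cytochrome c, stood last in complex III. Within the catalytic head of complex V, Atp5b (the beta subunit) had 1525 ± 185 CPM per kb, Atp5a1 (alpha) 864 ± 96.2, Atp5c1 (gamma) 396 ± 95.7, Atp5d (delta) 679 ± 44.3 and Atp5e (epsilon) 1131 ± 348. In the assembled head the alpha and beta subunits are present in 3 copies each and the other 3 in 1 copy.

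Over all libraries each of the 73 genes lay above the median of all genes in the table, which was 76.6 CPM per kb, and their median percentile was 89.0. Their coding sequences are short, with a median of 438 nt against 1560 nt for all genes. The table lists only transcripts with a summed count of at least 101, so a short gene has a row only where its footprints are dense. Coding length also differs between complexes and their parts. It is 636 (Ndufs8) to 2181 nt (Ndufs1) in the complex I core subunits and 147 (Ndufa4) to 507 nt (Cox4i1) in complex IV. The part of length in their order per kb was not tested. The level per kb also depends on the transcript that stands for the gene. Ndufa4 would stand at 1900 instead of 3180 CPM per kb over all libraries on its longest coding sequence, 246 nt in place of 147 nt. That is below Cox8a (2421 CPM per kb), so the place of Ndufa4 as the highest rests on the shorter length. Cox5b would fall in the same way from 1541 to 1016 CPM per kb.

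**Figure D1:**
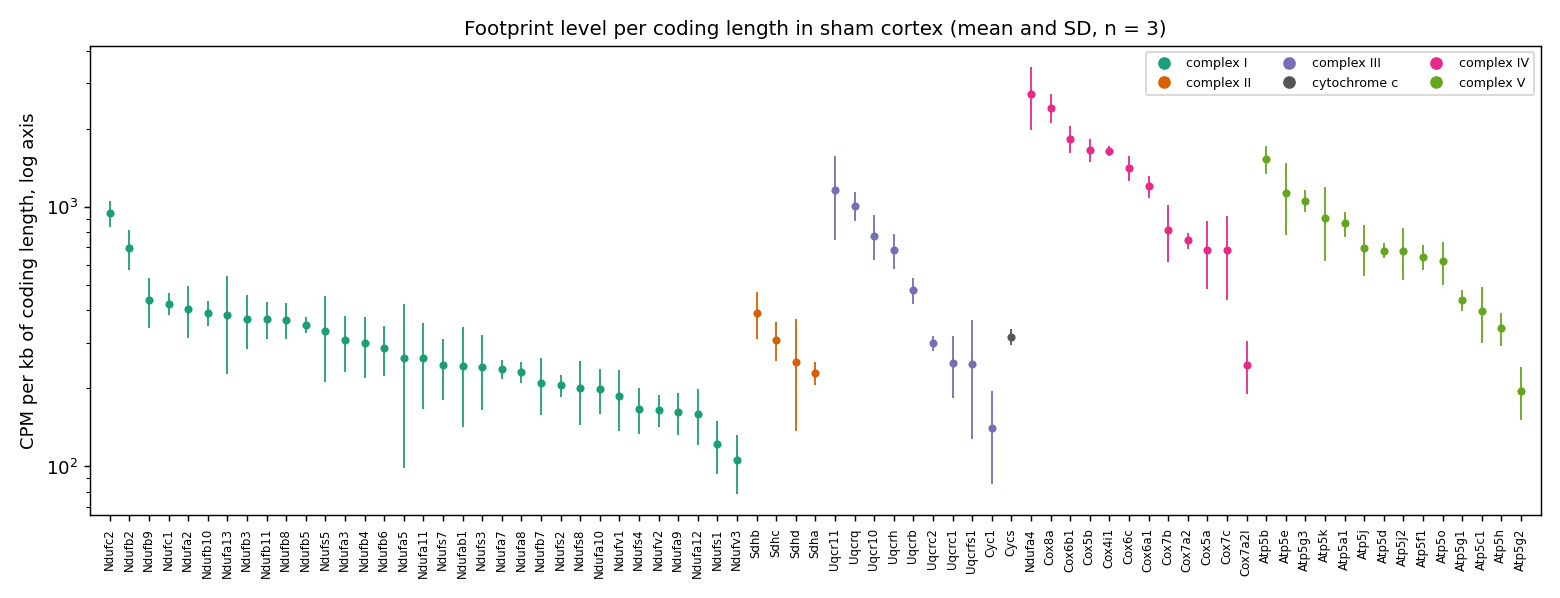
Footprint level of each of the 73 genes in sham cortex, as CPM per kb of coding length on a log axis, mean and SD over 3 libraries, ordered within each complex. Most complex IV genes sit above most complex I genes, and Cox7a2l at 247 CPM per kb is the lowest of complex IV.

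No member passed the edgeR test at an adjusted p of 0.05 in any of the 3 comparisons. The same test called 4 of 3835 genes (0.104%) in ipsilateral against sham cortex, 14 genes (0.365%) in ipsilateral against contralateral cortex and 0 genes (0%) in contralateral against sham cortex. In ipsilateral against sham cortex, 2 members were higher and 2 lower at an unadjusted p under 0.05, where 4.28% and 3.44% of all genes were. In ipsilateral against contralateral cortex the counts were 3 higher and 0 lower, against 4.82% and 2.82% of all genes. In contralateral against sham cortex they were 1 higher and 3 lower, against 2.63% and 3.10% of all genes. No member had ipsilateral libraries all above or all below the contralateral ones, where 2.35% and 2.06% of all genes did. The lowest adjusted p of a member was 0.406, 0.336 and 0.784 in these comparisons by edgeR. DESeq2 and limma-voom also called 0 members in each.

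The median log2 change of the members was -0.08 in ipsilateral against sham cortex, with 28 of 73 above 0, beside 0.00 for all genes tested. It was -0.02 in ipsilateral against contralateral cortex (33 above 0), beside 0.01 for all genes, and -0.11 in contralateral against sham cortex (29 above 0), beside 0.00 for all genes. Comparisons with a common group share its libraries and are not independent of each other. In each comparison 67 of the 73 changes were smaller than 0.5 on the log2 scale, and Sdhd in ipsilateral against sham cortex was the only one past 1. The 95% interval lay within a 2-fold change in either direction for 65 genes in ipsilateral against sham, 66 in ipsilateral against contralateral and 65 in contralateral against sham cortex. It lay within 1.5-fold for 13, 24 and 18 genes. Some of these intervals are narrower than the p of the same test implies, so the counts may be too high. For most members the intervals thus leave out a change beyond 2-fold but leave room for one of 1.5-fold.

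**Figure D2:**
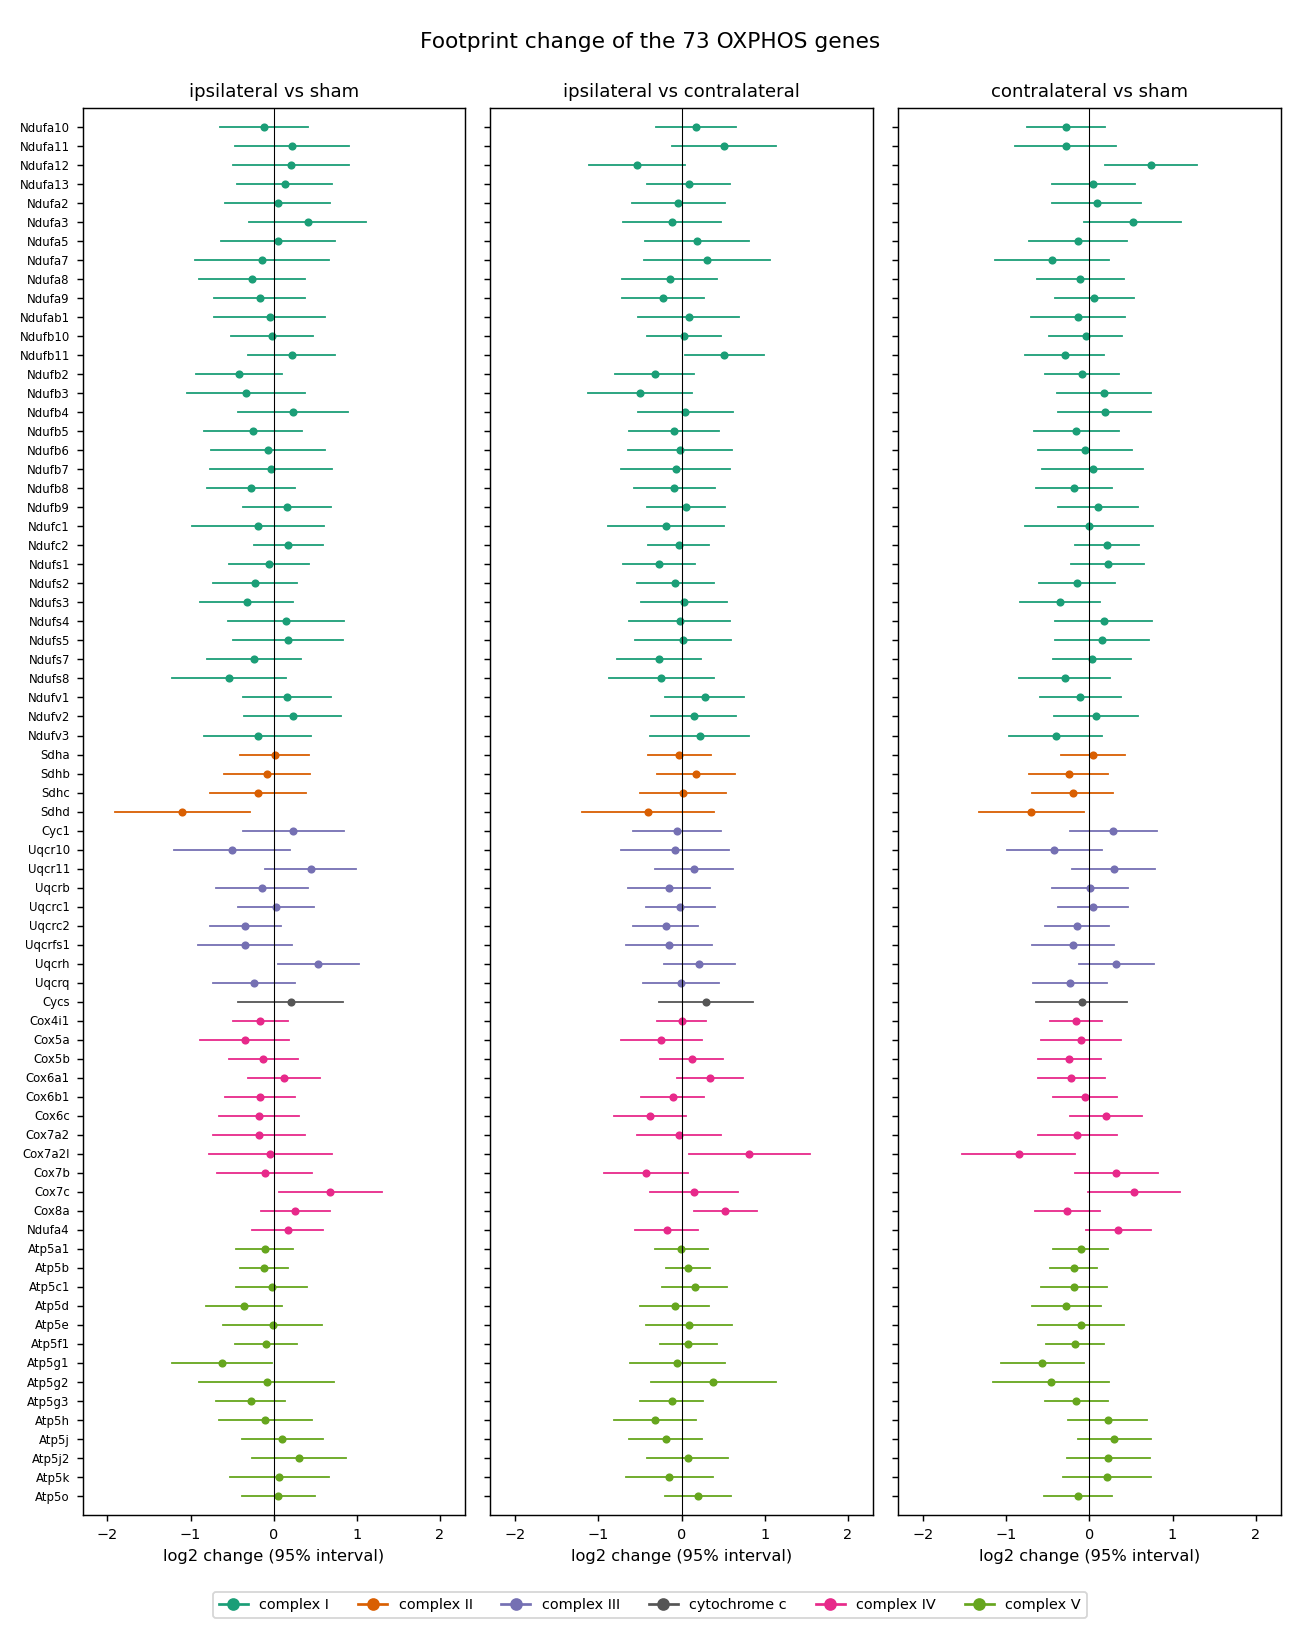
Log2 change (edgeR) with its 95% interval for each of the 73 genes, coloured by complex, in the 3 comparisons. Intervals mostly cross 0, and the point farthest from 0 is Sdhd at -1.10 in ipsilateral against sham cortex.

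Complex I, the NADH dehydrogenase, summed to 5371, 4628.5, 5661 and 4379.5 CPM in ipsilateral replicates 2, 4, 5 and 6. It summed to 5011, 4758, 5504 and 5049 CPM in contralateral replicates 1, 4, 5 and 6, and to 5057, 5194 and 5351 CPM in sham replicates 1, 2 and 5. The 3 groups overlapped, and ipsilateral replicates lay both above and below all sham libraries. The median log2 change of its 33 genes was -0.05 in ipsilateral against sham, -0.02 in ipsilateral against contralateral and -0.04 in contralateral against sham cortex. The 7 core subunits had medians of -0.22, -0.07 and -0.11 in these comparisons, with the interval of each gene across 0. Ndufs8, a core subunit that binds iron-sulfur clusters, had 83.5 ± 18.4 CPM in ipsilateral and 127 ± 35.2 CPM in sham cortex (n = 4 and 3), a log2 change of -0.54 ± 0.34 (SE).

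Among the 26 accessory subunits, Ndufa12, of the matrix arm, had 138, 104, 118 and 138 CPM in contralateral libraries and 91.7, 60.9 and 61.9 CPM in sham libraries. Every contralateral library lay above every sham library. Its log2 change was 0.74 ± 0.28 (SE, edgeR adjusted p = 0.784). In ipsilateral libraries it had 109, 85.7, 84.3 and 67.0 CPM, which overlapped both other groups. It was the only member for which contralateral libraries lay entirely above sham libraries, where 3.44% of all genes did so. Ndufa12 lies at chr10:94198720-94221443 on the plus strand (mm10, as for all positions here), and 59.7% of the 28-nt words of its transcript also occur in the pseudogene Gm15920, so its counts are uncertain.

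Ndufb11, an accessory subunit of the membrane arm at chrX:20615326-20617619 (minus strand), had 196.5, 171, 120 and 234 CPM in ipsilateral libraries. It had 118, 119, 145 and 131 CPM in contralateral libraries, so the groups overlapped through ipsilateral replicate 5. With a log2 change of 0.52 ± 0.24 (SE, edgeR adjusted p = 0.594), it did not pass, and without ipsilateral replicate 6 the change was 0.34. Its sham level was 168 ± 27.5 CPM (n = 3). Of its 28-nt words, 21.4% occur in Gm6444.

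Complex II, succinate dehydrogenase, also belongs to the citric acid cycle and has no subunit from the mitochondrial genome. Its 4 genes summed to 822, 629, 1265 and 1022 CPM in ipsilateral, 951, 908, 1075 and 884 CPM in contralateral and 990, 1081.5 and 1124 CPM in sham libraries. Ipsilateral libraries spread from the lowest to the highest value of all 11. Sdha, the flavoprotein, had 455 ± 157 CPM in ipsilateral, 474 ± 48.8 in contralateral and 458 ± 46.7 in sham cortex. Sdhb, the iron-sulfur subunit, had 303 ± 125, 282 ± 65.3 and 330 ± 67.8 CPM, and the membrane anchor Sdhc 127 ± 19.9, 130 ± 23.0 and 156 ± 26.4 CPM in the same order of groups. The log2 changes of these 3 genes were between -0.25 and 0.17 in the 3 comparisons, each with an interval across 0.

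Sdhd, the other membrane anchor, had the largest log2 change of the 73 genes, which did not pass the test. It had 43.7, 57.1, 36.1 and 58.6 CPM in ipsilateral libraries, 78.7, 74.5, 69.0 and 50.1 CPM in contralateral libraries, and 76.5, 183 and 103 CPM in sham libraries. All ipsilateral libraries lay below all sham libraries, whereas contralateral libraries overlapped both groups. The log2 change was -1.10 ± 0.40 in ipsilateral against sham cortex (SE, edgeR adjusted p = 0.406). It was -0.70 ± 0.31 in contralateral against sham (edgeR adjusted p = 0.845) and -0.40 ± 0.39 in ipsilateral against contralateral cortex (edgeR adjusted p = 0.884). Without sham replicate 2 the contralateral change from sham cortex was -0.46. These levels rest on 6, 2, 3 and 7 counts in ipsilateral libraries, against 12, 10, 21 and 29 in contralateral and 20, 12 and 20 in sham libraries. The gene lies at chr9:50596357-50603812 on the minus strand, and no 28-nt word of its transcript occurs in another gene.

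Complex III, the cytochrome bc1 complex, summed to 2009, 1743, 2060 and 1909 CPM in ipsilateral, 1967.5, 2025, 2019 and 1957 CPM in contralateral and 1919, 2224 and 1985 CPM in sham libraries, with overlap. Its catalytic subunits Cyc1 and Uqcrfs1 (the Rieske iron-sulfur protein) had 143 ± 7.67 and 181 ± 51.5 CPM in ipsilateral, 158 ± 37.5 and 191 ± 28.2 in contralateral and 137 ± 53.6 and 204 ± 98.9 in sham cortex. The large matrix subunits Uqcrc1 and Uqcrc2 had log2 changes of 0.03 ± 0.23 and -0.34 ± 0.21 (SE) in ipsilateral against sham cortex.

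Uqcrh, the hinge protein through which complex III binds cytochrome c, had 291, 257, 325 and 218 CPM in ipsilateral libraries and 187, 152 and 206 CPM in sham libraries. It was the only member whose ipsilateral libraries all lay above the sham libraries, where 3.91% of all genes did so. Contralateral libraries, at 203, 216, 263 and 244 CPM, overlapped both. The log2 change was 0.54 ± 0.24 in ipsilateral against sham (SE, edgeR adjusted p = 0.574), 0.22 ± 0.21 in ipsilateral against contralateral and 0.33 ± 0.22 in contralateral against sham cortex. Its partner Cycs, cytochrome c itself, had 123 ± 34.1 CPM in ipsilateral, 89.7 ± 17.4 in contralateral and 99.6 ± 6.92 in sham cortex, with log2 changes of 0.21 ± 0.31, 0.30 ± 0.28 and -0.09 ± 0.27 in the same comparisons. Uqcrh lies at chr4:116066965-116075071 (minus strand), and 19.2% of its words occur in other genes, as do 32.3% of those of Cycs. Cycs has 315 coding nt in a transcript of 3123 nt, and the share in its coding part was not computed.

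Complex IV, cytochrome c oxidase, summed to 4570, 3857, 3987 and 4304 CPM in ipsilateral, 3955, 3797, 4554 and 4235 CPM in contralateral and 4285, 4036.5 and 4423 CPM in sham libraries, again with overlap. Its 12 genes had median log2 changes of -0.11, -0.01 and -0.13 in ipsilateral against sham, ipsilateral against contralateral and contralateral against sham cortex. The common isoforms Cox4i1, Cox6a1, Cox6b1 and Cox7a2 had log2 changes between -0.17 and 0.13 in ipsilateral against sham cortex, each interval across 0. Ndufa4 had 459 ± 126 CPM in ipsilateral, 527 ± 56.1 in contralateral and 399 ± 109 in sham cortex, and none of its 3 comparisons had an interval clear of 0.

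Cox8a, a small subunit of the membrane part, had the lowest unadjusted p of any member. It had 517, 714, 458 and 712 CPM in ipsilateral libraries against 328, 357, 539 and 389 CPM in contralateral libraries. The groups overlapped through contralateral replicate 5, and on that day the contralateral library was the higher. It did not pass, with a log2 change of 0.53 ± 0.19 (SE, edgeR adjusted p = 0.336). In sham libraries it had 497, 564 and 438 CPM, which overlapped both. Cox8a lies at chr19:7215153-7217616 (minus strand), and 0.57% of its words occur elsewhere.

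Cox7c, another small subunit, had 269, 286, 229 and 126 CPM in ipsilateral, 177, 96.8, 233 and 233 CPM in contralateral and 115, 91.4 and 180 CPM in sham libraries. Ipsilateral replicate 6 lay among the sham libraries. The log2 change in ipsilateral against sham cortex was 0.68 ± 0.31 (SE, edgeR adjusted p = 0.578). Cox7c lies at chr13:86044816-86046904 (minus strand), and 56.1% of its words occur in other genes, chiefly in Gm10012.

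Cox7a2l had 72.8, 114, 60.2 and 100.5 CPM in ipsilateral, 65.6, 37.2, 49.3 and 41.5 CPM in contralateral and 103, 76.2 and 67.0 CPM in sham libraries. All contralateral libraries lay below all sham libraries, and contralateral replicate 1 lay within the ipsilateral range. The log2 change was 0.81 ± 0.36 in ipsilateral against contralateral (SE, edgeR adjusted p = 0.570) and -0.85 ± 0.34 in contralateral against sham cortex (edgeR adjusted p = 0.793). Without sham replicate 1 the contralateral change from sham cortex was -0.55. It was -0.04 ± 0.37 in ipsilateral against sham cortex. With 130 counts over all libraries it had the fewest of any member. It lies at chr17:83501918-83517330 (minus strand), and 24.1% of its words occur in other genes.

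**Figure D3:**
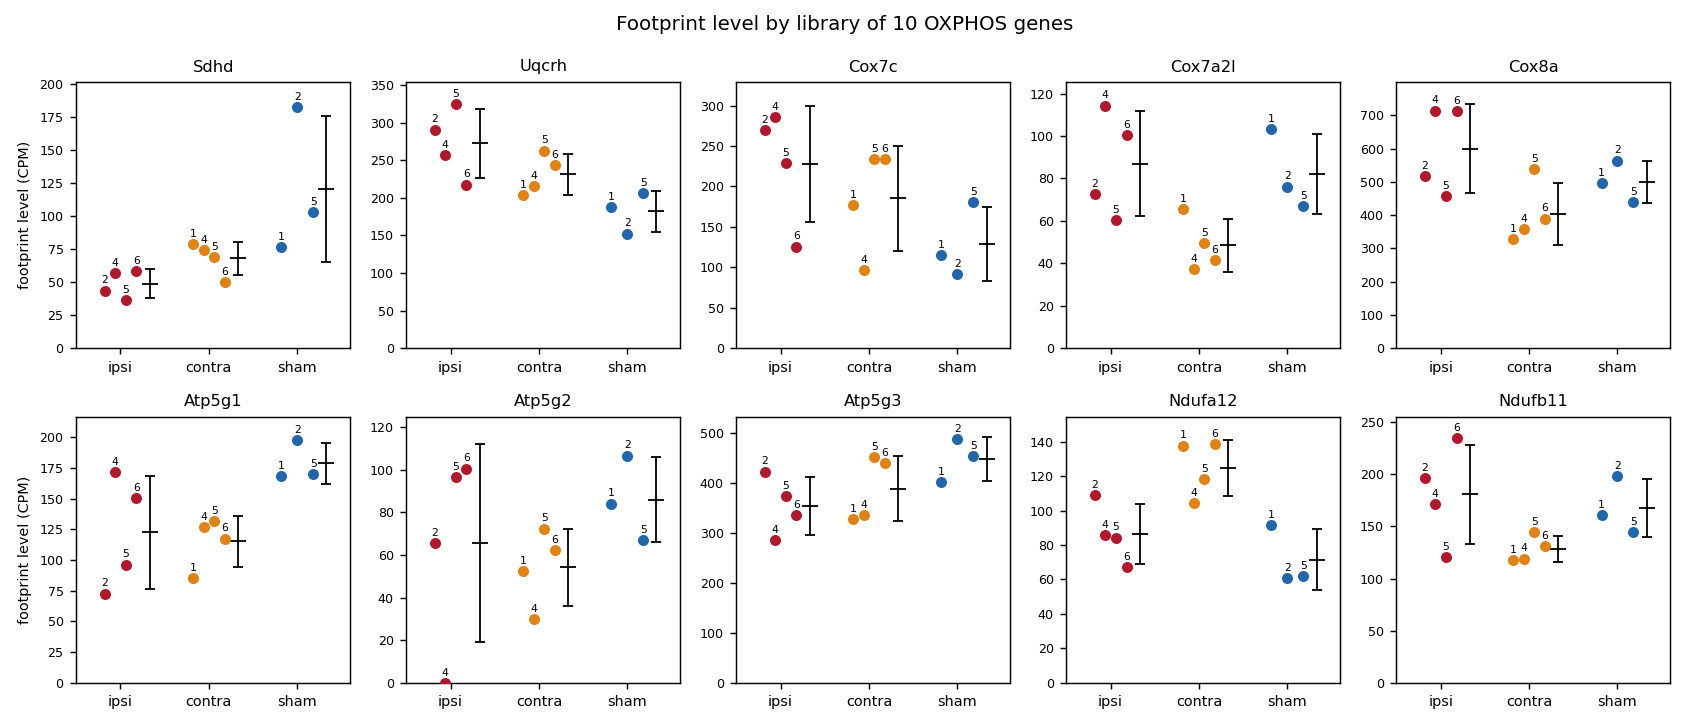
Footprint level in CPM by library for 10 genes, each point a library labelled with its replicate number and bars giving mean and SD (n = 4 ipsilateral, 4 contralateral and 3 sham). Sdhd is below every sham library in all ipsilateral libraries, Uqcrh above them, and Atp5g1 below every sham library in all contralateral libraries.

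Complex V, the ATP synthase, was the one complex whose sham libraries all lay above the rest. Its 14 genes summed to 6586, 5886, 6782 and 6791 CPM in ipsilateral, 6775, 5979, 6573 and 6398 CPM in contralateral and 7263, 7113 and 6809.5 CPM in sham libraries. The means were 6511 ± 428 CPM in ipsilateral, 6431 ± 338 in contralateral and 7062 ± 231 in sham cortex (SD, n = 4, 4 and 3). The ipsilateral mean differed from the sham mean by -7.80% and the contralateral mean by -8.93%, while ipsilateral and contralateral libraries overlapped. The gap was narrow: the highest ipsilateral and the lowest sham library were 6791 and 6809.5 CPM, with counting errors (1 SE) of 3.51% and 2.75%. Within a day of surgery the difference was -7.41% and -0.409% for ipsilateral against sham cortex on days 2 and 5. It was -6.72% and -3.48% for contralateral against sham cortex on days 1 and 5. Without ipsilateral replicate 4, the shallowest library, the ipsilateral difference from sham cortex was -5.07%, and without that library and sham replicate 2 it was -4.89%. Without Atp5a1 and Atp5b, its 2 genes with the most counts, the differences were -7.37% and -7.08% and the groups overlapped. No test was made of this sum, since the genes in it were chosen with results of these data known.

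**Figure D4:**
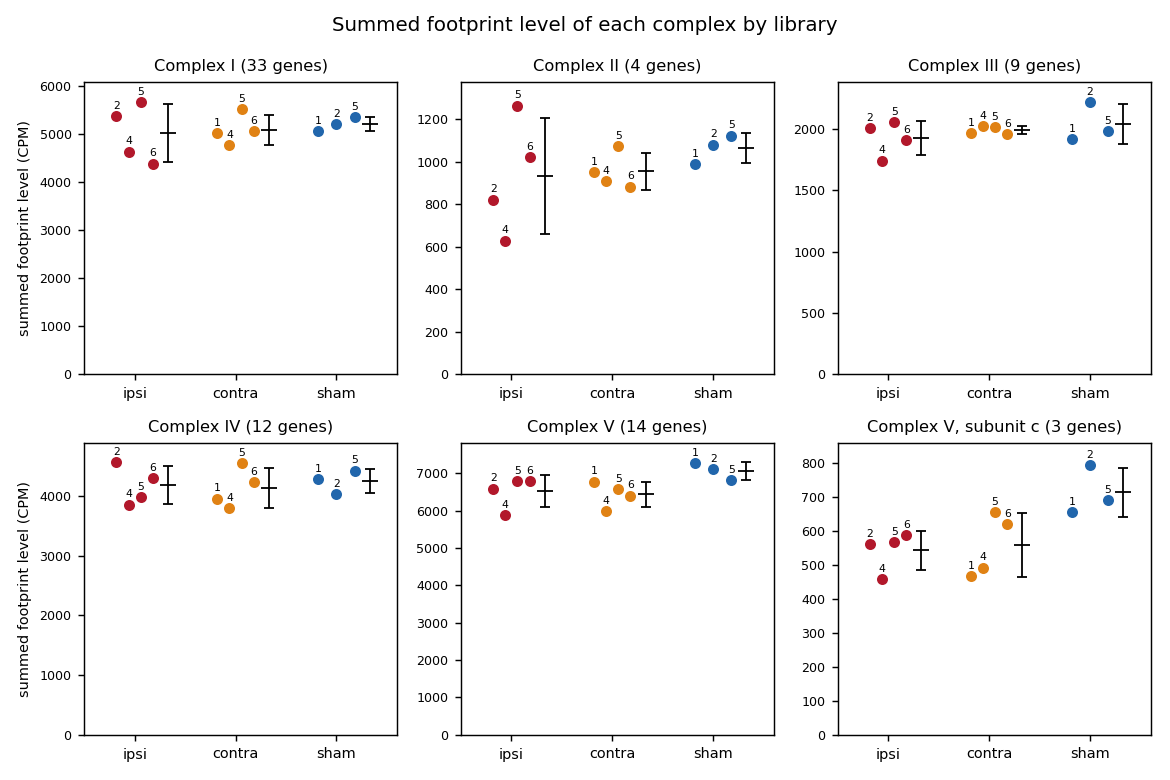
Summed footprint level in CPM by library for complexes I to V and for the 3 subunit c genes of complex V, each point a library with its replicate number and bars giving mean and SD (n = 4, 4 and 3). Groups overlap for complexes I to IV, whereas for complex V the sham libraries, from 6809.5 CPM up, lie above all others.

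By part of the enzyme, the 5 genes of the catalytic head summed to 4300 ± 390 CPM in ipsilateral, 4202 ± 305 in contralateral and 4726 ± 416 in sham cortex, with overlap. Apart from the subunit c genes, the 2 membrane genes Atp5j2 and Atp5k summed to 393 ± 52.1, 396 ± 95.1 and 347 ± 66.5 CPM in these groups. Their differences from sham went the other way, at 13.4% in ipsilateral and 14.1% in contralateral cortex, with overlap. The 4 stalk genes (Atp5f1, Atp5h, Atp5j and Atp5o) stood at 1275 ± 91.2, 1276 ± 65.4 and 1277 ± 134 CPM in these groups, differences from sham of -0.169% and -0.110%. Atp5d, the delta subunit of the central stalk, was summed with the catalytic head and not with these 4. It had 277, 229, 241 and 285 CPM in ipsilateral libraries against 321, 366 and 340 CPM in sham libraries. It and Sdhd were the 2 members with all ipsilateral libraries below the sham libraries, where 3.26% of all genes were, and it is named after its values were seen. Its log2 change was -0.36 ± 0.23 (SE, edgeR adjusted p = 0.747), and 0 of its words occur elsewhere.

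The c ring, the rotor in the membrane that protons turn, is built from subunit c alone, and Atp5g1, Atp5g2 and Atp5g3 all encode the same mature protein with different import sequences. Together they summed to 560, 457, 566 and 586 CPM in ipsilateral, 466, 491, 654 and 619 CPM in contralateral and 654, 792 and 691 CPM in sham libraries. The ipsilateral libraries all lay below the sham libraries, whereas contralateral replicate 5 (654.3 CPM) overlapped sham replicate 1 (653.7 CPM). The differences from sham cortex were -23.8% in ipsilateral and -21.7% in contralateral cortex. Within days they were -29.3% and -18.0% for ipsilateral cortex on days 2 and 5, and -28.8% and -5.27% for contralateral cortex on days 1 and 5. The ipsilateral sum without the 2 smallest libraries (ipsilateral replicate 4 and sham replicate 2) differed by -15.4%. Ipsilateral replicate 4 held 16 counts for these genes.

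Of these genes Atp5g1 had 72.8, 171, 96.4 and 151 CPM in ipsilateral, 85.3, 127, 132 and 118 CPM in contralateral and 168, 198 and 170 CPM in sham libraries. All contralateral libraries lay below the sham libraries, as they did for Cox7a2l, the other such member, where 4.15% of all genes did so. Ipsilateral replicate 4 overlapped the sham libraries. The log2 change was -0.62 ± 0.30 in ipsilateral (SE, edgeR adjusted p = 0.631) and -0.57 ± 0.25 in contralateral cortex (edgeR adjusted p = 0.845) against sham. Without ipsilateral replicate 2 the ipsilateral change was -0.38. Atp5g3, with the highest level per kb of these copies in sham cortex (1058 ± 103 CPM per kb, against 438 ± 40.9 for Atp5g1 and 196 ± 45.4 for Atp5g2), had 354 ± 57.9 CPM in ipsilateral, 388 ± 65.7 in contralateral and 447 ± 43.4 in sham cortex. Its log2 changes from sham were -0.27 ± 0.21 in ipsilateral and -0.16 ± 0.19 in contralateral cortex. Atp5g2 had 65.5, 0, 96.4 and 100.5 CPM in ipsilateral, 52.5, 29.8, 72.3 and 62.2 CPM in contralateral and 84.1, 107 and 67.0 CPM in sham libraries.

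The transcripts of these 3 copies share no word of 28 nt with each other. The longest run common to Atp5g1 and Atp5g2 is 21 nt, shown here because a footprint longer than it can tell the copies apart.
Atp5g1 and Atp5g2: ctcatcctcttcgccatgtga
The longest run common to Atp5g1 and Atp5g3 is 11 nt, and that of Atp5g2 and Atp5g3 is 8 nt. Atp5g2 is matched in all of its words (100%) by other genes, chiefly Gm10175, whereas 15.1% of the words of Atp5g1 and 0% of those of Atp5g3 occur in other genes. These shares are over whole transcripts. Atp5g1 has 408 coding nt in a transcript of 4715 nt, so the share in its coding part may differ and was not computed.

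NRF1, GABP (also called NRF2) and YY1 are transcription factors known to act on promoters of many nuclear genes of oxidative phosphorylation. RefSeq promoter sequences (GRCm38.p6, 250 bases before to 50 after each start) matched 61 of the 73 genes by symbol. A gene was counted if any of its promoters held the motif, on either strand and with overlaps between motifs allowed. So counted, the NRF1 motif (GCGCA, any base, GCGC) was in 15 of 61 members (24.6%), against 5.19% of 27025 genes. The GABP motif CCGGAAG was in 15 (24.6%, against 9.93%) and the YY1 motif AAGATGGC in 9 (14.8%, against 3.19%). At least 1 of these motifs was in 34 members (55.7%) against 16.4% of all genes. The general GC box GGGCGG was in 25 (41.0%, against 38.2%) and the CCAAT box CCAAT in 24 (39.3%, against 41.1%). The 27025 genes are all those with a promoter sequence, not only genes with footprints here, and no comparison with the latter was made. By complex, the NRF1 motif was in 6 of 13 complex V, 5 of 29 complex I and 2 of 3 complex II genes. The YY1 motif was in 6 of 29 complex I and 3 of 13 complex V genes but in 0 of the 10 of complex IV.

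The promoters of Sdhd and of the 3 subunit c copies are shown, as the gene with the largest change and the copies with the largest difference in sum. Capitals mark the NRF1 and GABP matches, read 5′ to 3′ on the strand of the gene, which is the minus strand for all 4. They lie at chr9:50603800-50604099 (Sdhd), chr11:96075582-96075881 (Atp5g1), chr15:102670998-102671297 (Atp5g2) and chr2:73911277-73911576 (Atp5g3).
Sdhd: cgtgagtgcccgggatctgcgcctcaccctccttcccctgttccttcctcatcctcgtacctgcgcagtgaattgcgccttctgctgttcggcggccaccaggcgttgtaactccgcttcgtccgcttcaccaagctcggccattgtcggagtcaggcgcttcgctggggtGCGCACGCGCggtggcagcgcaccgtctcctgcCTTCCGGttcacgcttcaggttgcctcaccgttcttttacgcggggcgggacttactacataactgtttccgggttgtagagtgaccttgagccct
Atp5g1: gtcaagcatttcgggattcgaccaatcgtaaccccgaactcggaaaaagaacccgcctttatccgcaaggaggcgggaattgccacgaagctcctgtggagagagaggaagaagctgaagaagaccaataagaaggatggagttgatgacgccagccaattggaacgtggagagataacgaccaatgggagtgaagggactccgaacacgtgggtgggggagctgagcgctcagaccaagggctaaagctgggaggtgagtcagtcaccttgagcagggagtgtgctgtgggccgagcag
Atp5g2: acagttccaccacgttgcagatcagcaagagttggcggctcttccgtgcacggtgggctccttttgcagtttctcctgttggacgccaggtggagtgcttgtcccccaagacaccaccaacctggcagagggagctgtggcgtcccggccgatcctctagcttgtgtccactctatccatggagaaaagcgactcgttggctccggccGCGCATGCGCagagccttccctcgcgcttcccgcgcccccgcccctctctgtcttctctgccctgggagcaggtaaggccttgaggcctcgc
Atp5g3: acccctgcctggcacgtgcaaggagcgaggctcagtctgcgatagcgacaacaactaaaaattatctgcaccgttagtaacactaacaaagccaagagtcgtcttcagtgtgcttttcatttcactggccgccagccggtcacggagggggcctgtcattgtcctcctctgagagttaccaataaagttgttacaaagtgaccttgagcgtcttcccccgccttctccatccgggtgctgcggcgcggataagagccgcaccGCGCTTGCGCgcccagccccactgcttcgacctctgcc
Sdhd holds an NRF1 match and, in reverse orientation as CTTCCGG, a GABP match. Atp5g2 and Atp5g3 hold an NRF1 match, and Atp5g1 holds none of the letters of NRF1, GABP or YY1 in this window. The match is a description of letters, and binding was not measured.

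Genes around the pathway were read from the same fit. Of the assembly factors for these complexes 7 of 43 were tested, of the carriers and channels that move ADP, ATP and phosphate 13 of 19, and of the import and inner membrane genes 15 of 32. Of the transcriptional regulators of mitochondria 2 of 16 were tested, of the citric acid cycle and pyruvate entry genes 24 of 29, and of the glycolytic genes 18 of 21. No gene of these lists passed the edgeR test in any comparison, beside the 0.104%, 0.365% and 0% of all genes called. Their median log2 changes in ipsilateral against sham cortex were 0.10 for assembly factors, -0.15 for carriers, -0.17 for import, 0.43 for the regulators, 0.04 for the citric acid cycle and -0.07 for glycolysis. The citric acid cycle genes summed to 7503 to 8287 CPM in ipsilateral, 6969 to 7831 in contralateral and 6702 to 7951 in sham cortex. The glycolytic genes summed to 15943 to 19165, 16561 to 19357 and 18356 to 18899 CPM in these groups.

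Many members share sequence with other genes, and how reads that match several genes were counted is unknown here. For 24 of the 73, more than 20% of the 28-nt words of the transcript occur in another gene, for 6 more than 50%, and for 20 none do. The 6 are Atp5g2, Atp5h, Ndufa12, Cox7c, Uqcrb and Ndufs3. All these shares are over whole transcripts, with the parts outside the coding sequence, and shares within coding sequence were not computed. The exons of another gene overlap more than 10% of the transcript in 15 members, among them Cox5a (41.7%, by Gm26631 on the opposite strand) and Ndufb11 (12.9%, by Rbm10). Whether the counting used strand is not given in the sources used here, so these counts are uncertain.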

How the data were processed

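Ribosome footprints of 11 cortex libraries (4 ipsilateral, 4 contralateral, 3 sham) were analysed from a deposited table of whole-number counts per Ensembl transcript, which the authors made from their reads. Per the submitters' processing notes, Bowtie2, edgeR and the build mm10 were used, with no version or role stated. How reads were counted is not given in the sources used here. Of 9784 transcripts, 9736 matched GENCODE vM21, and the other 48 (0.306% of counts) were left out. For each symbol the transcript with most counts over all libraries was taken, since isoforms repeat counts. Genes were tested with edgeR 4.0.16 (R 4.3.3): filterByExpr with a minimum count of 10 kept 3835 of 4338 genes, with TMM scaling, robust quasi-likelihood fits of all libraries, F tests and Benjamini-Hochberg adjustment over all genes tested. The script was tested on simulated data. Intervals are at 95%, cover the spread between libraries, and counting errors cover counting only. For some genes the SE and interval, taken from the F value, are narrower than the p of the test implies. An example is Atp5g3 in contralateral against sham cortex, at -0.16 ± 0.19 (edgeR unadjusted p = 0.64).

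Alternatives were DESeq2 1.42.0, limma 3.58.1 (voom), other scaling, no filter, other transcripts, fewer libraries and a replicate block. Replicate numbers name days of surgery, per the submitters' design text, and so pair libraries across groups. Deviations from group means correlated with r from -0.139 to 0.224 (median 0.131) over 7 same-day pairs and from -0.255 to 0.26 (median -0.03) over 33 others. Whether libraries of a number share an animal is not stated. Chi-square per gene within groups was 1.42 to 2.88, so no library repeats another of its group. Pairs across groups were not compared in this way.

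Members and lists were chosen with earlier results of these data known. Named are members past the threshold, those with the largest change each way per complex and comparison at an unadjusted p under 0.05, those highest and lowest per kb in each complex, the Sdh genes, Cyc1, Cycs and members of isoform groups. Other genes named were picked for their role or after their values were seen.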

Additional observations from a re-analysis of the deposited data

Results flagged for a closer look

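Cox4i1, the main isoform of a regulatory subunit of complex IV, had 542.85 CPM in ipsilateral replicate 4, far from the other ipsilateral libraries at 778.7, 778.76 and 807.06 CPM. The gap to the nearest of them is 0.893 of the range of the group, past the limit of Dixon's test. Of 70 groups of 4 libraries examined, 1 was marked in this way, and chance marks about 1 in 20. Replicate 4 is the library with the fewest counts.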

How the results depend on the processing

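No member was called in any of the 3 comparisons under any of the 20 alternatives run for each, and the lowest adjusted p of a member over them was 0.368 in ipsilateral against sham, 0.166 in ipsilateral against contralateral and 0.499 in contralateral against sham cortex. DESeq2 gave no adjusted p for 28 members in ipsilateral against sham and 4 in ipsilateral against contralateral cortex. With the day of surgery as a replicate block, 0 members were called in each comparison, the median log2 changes were -0.03, -0.07 and -0.02, Sdhd in ipsilateral against sham cortex was at -1.21, and the block changed no call of a member. Median log2 changes ran from -0.11 to -0.01, -0.07 to 0.01 and -0.13 to -0.02 over the alternatives. Calls over all genes ran from 0 (without sham replicate 1) to 22 (without ipsilateral replicate 5) in ipsilateral against sham, from 3 (without ipsilateral replicate 2) to 26 (without ipsilateral replicate 5) in ipsilateral against contralateral and from 0 to 3 in contralateral against sham cortex. DESeq2 called 10, 13 and 2 genes in these comparisons. The summed level of complex V differed from sham cortex by -9.78% to -4.89% in ipsilateral (no overlap in 14 of 16 alternatives) and by -10.0% to -6.23% in contralateral cortex (9 of 16). That of subunit c differed by -27.2% to -15.4% (15 of 15) and by -25.7% to -16.5% (5 of 15). Most of these alternatives leave out libraries, which can bring separate groups to overlap only through changed scaling. The counts without overlap therefore do not measure how firm a separation is. The alternatives for these sums and for single members were chosen after seeing the data. Sdhd in ipsilateral against sham and Cox7a2l in ipsilateral against contralateral cortex had no value where only the 2 groups compared were fitted, since the filter removed them. Depth limits the values of ipsilateral replicate 4, the smallest library, which holds a median of 6 counts per member.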
